A study of Mus musculus with 60 samples.

Results

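Kupffer cells of 5 Trem1-deficient mice given carbon tetrachloride (CCl4) were set against Kupffer cells of 5 wild-type mice given corn oil, to describe what CCl4 left changed in cells without Trem1. The 10 libraries are those of the 2 groups, out of 15 in the series, with 1 column of gene counts per mouse and 4 sequencing lanes behind each column. The other 5 libraries, from wild-type mice given CCl4, are used only to show where the Trem1-deficient mice differed from them. All mice were C57BL/6J, 8 weeks old and labelled male. CCl4 was given once, at 2 µl per g of body weight diluted in corn oil, and every mouse was killed 12 h later. Trem1-deficient mice given oil were not analysed here, so genotype and treatment differ together in this comparison and their parts cannot be told apart. Cells that bound CD11b beads were removed before F4/80-positive cells were collected, so macrophages rich in CD11b are depleted by design. The sources used here do not say which part of Trem1 the deficient mice lack or from which colony they came.

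Kupffer cells are the resident macrophages of the liver; they line the sinusoids, take up particles and dying cells from the blood and present antigen. CCl4 is converted by hepatocytes to a radical that damages them, and macrophages respond to the debris with stress, lipid and inflammatory programmes. TREM1, the product of Trem1, is a receptor of neutrophils, monocytes and macrophages that amplifies Toll-like receptor signals; it has no signalling tail and works with the adaptor DAP12, the product of Tyrobp.

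The libraries held 892498 to 1922569 gene counts in the oil mice and 1250547 to 2593004 in the Trem1-deficient mice. At these depths 3 counts, the most that a count of 0 allows, stand for 1.16 to 3.36 CPM (counts per 1e6 gene counts of a library), which covers counting error only. The oil libraries held 72 to 755 counts of Xist, the RNA of the inactive X chromosome of female cells, and 0 counts of Y-linked genes, against the male label. Trem1-deficient mice 1 and 2 were like them, with 1552 and 1400 Xist counts and 7 and 0 Y-linked counts. In Trem1-deficient mice 3 to 5 Xist had 1 to 31 counts and Y-linked genes 134 to 425. The same line divides the index numbers of the libraries: those of the oil mice and of Trem1-deficient mice 1 and 2 run from 15 to 87 in steps of 12, and those of Trem1-deficient mice 3 to 5 and the wild-type CCl4 mice from 4 to 88 in steps of 12. Changes are therefore also given for Trem1-deficient mice 1 and 2 alone, which share index series and sex-linked transcripts with the oil mice, and for mice 3 to 5.

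Levels below are CPM scaled by the trimmed mean of M-values (TMM), and changes are log2 fold changes ± SE from edgeR's quasi-likelihood test with Benjamini-Hochberg adjusted p over all 9001 genes tested. Rose, fell, changed and passed refer to that test unless another tool is named. Trem1 (chr17:48232768-48246924, plus strand) was lower in all Trem1-deficient mice. It stood at 32.9, 109, 34.3, 46.1 and 47.8 CPM in oil mice 1 to 5 and at 1.67, 2.03, 10.9, 5.71 and 1.17 CPM in Trem1-deficient mice 1 to 5. The groups did not overlap, and the log2 fold change was -3.64 ± 0.59, adjusted p = 0.00104. An exact two-sided permutation test on log2(CPM + 1) gave p = 0.00794, the smallest that 5 mice against 5 allow. Between 2 and 25 Trem1 counts remained per Trem1-deficient library, and whether these 3' tags lie in the part removed is not known. Trem1-deficient mouse 3 held the most, 25 counts.

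The cells were checked against Kupffer cell markers. The summed level of 20 Kupffer identity genes was 69332, 34782, 75895, 66520.0 and 84345 CPM of the library total in oil mice 1 to 5 and 61586, 74290.0, 64175, 62733 and 59743 CPM in Trem1-deficient mice 1 to 5. The ranges overlapped, with every Trem1-deficient mouse inside the oil range (log2 difference 0.02, exact permutation p = 0.976, adjusted over 11 cell types 0.976). In the wild-type CCl4 mice the same sum was 5750.2 to 19358 CPM. The sum includes Marco, which rose, and 5 of the 20 genes had a higher mean in the Trem1-deficient mice. Oil mouse 2 alone set the low end of the oil range. With TMM scaling the sum was 38866 CPM in that mouse and 66186 to 77483 CPM in the other oil mice. The Trem1-deficient mice then had 53310 to 65252 CPM, so a lower identity level is not excluded. Marker sums of other cell types overlapped between Trem1-deficient and oil mice in 10 of 10 lists, with adjusted p from 0.218 up to 0.976. Hepatocyte markers were uneven: they summed to 8706, 16013, 6599, 3674 and 5284 CPM in the oil mice and 2799, 1628, 5176, 9551 and 18149 CPM in the Trem1-deficient mice. Trem1-deficient mice 1 and 2 were below every oil mouse and mouse 5 above every oil mouse. In these bulk samples fewer cells of a type and less RNA per cell cannot be told apart.

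**Figure D1:**
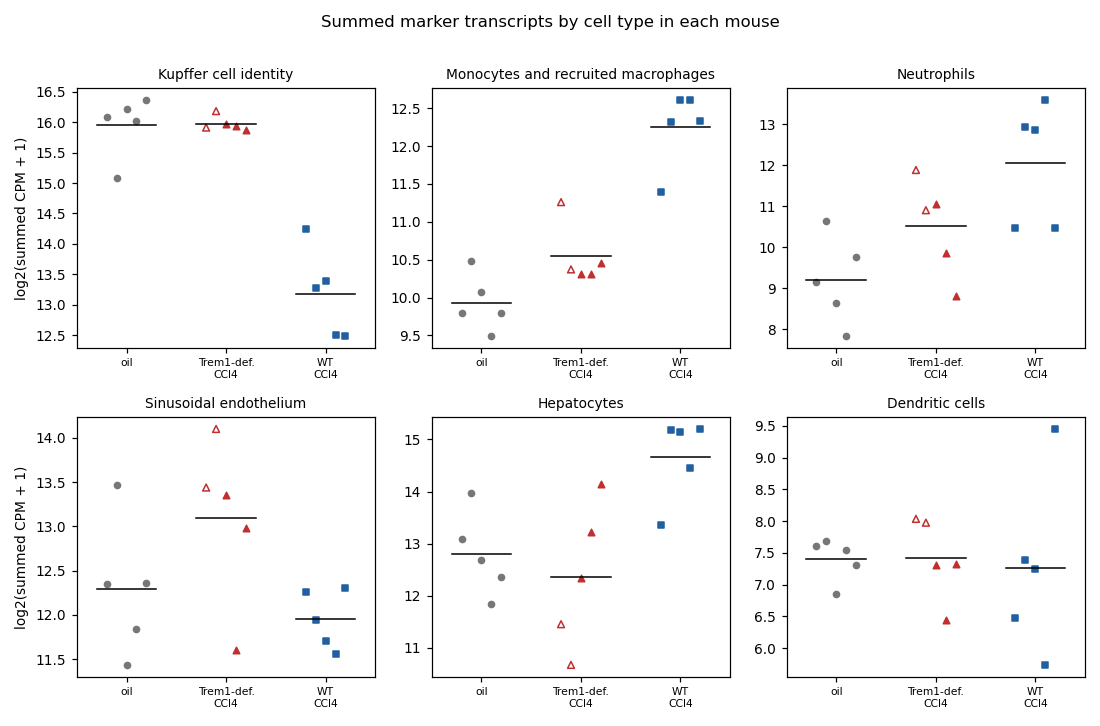
Summed marker transcripts of 6 cell types, as log2 of the summed CPM of the library total + 1, in oil (grey circles), Trem1-deficient CCl4 (red triangles, open for mice 1 and 2) and wild-type CCl4 mice (blue squares), with a line at each group's mean. Kupffer sums of the Trem1-deficient mice lie within the oil range and above the wild-type CCl4 mice, and hepatocyte sums are lowest in Trem1-deficient mice 1 and 2.

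Of 9001 genes tested, 21 changed between Trem1-deficient CCl4 and oil mice at an adjusted p under 0.05, or 0.233% of the genes. Of these, 16 rose (0.178%) and 5 fell (0.0555%), and 419 genes had an unadjusted p under 0.05. DESeq2 called 74 of the 9001 genes and limma-voom 9. The median log2 fold change of all tested genes was 0.02. In 20 of the 21 genes the groups did not overlap; over all tested genes the Trem1-deficient mice lay entirely above the oil mice in 147 (1.63%) and entirely below in 114 (1.27%). The genes that rose were Apoa4, Cd63, Serpina3n, Marco, Hspa5, Cxcl13, Ddit4, Mt2, Hspb1, Cd93, Srxn1, Fkbp1a, Lcn2, Serpina7, Il1r2 and Orm2, and those that fell were H2-Ab1, H2-Aa, H2-Eb1, Trem1 and Scd1. Marco, H2-Ab1 and H2-Aa held their call in each of 20 alternative analyses. Trem1, Apoa4, Cd63 and Serpina3n lost it only under limma-voom, Hspa5 and H2-Eb1 only when mice 1 and 2 were set alone against oil, and the other 12 in 3 to 16 of the 20, or of 19 for Orm2 and Serpina7, which were not tested in the 10 mice alone.

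**Figure D2:**
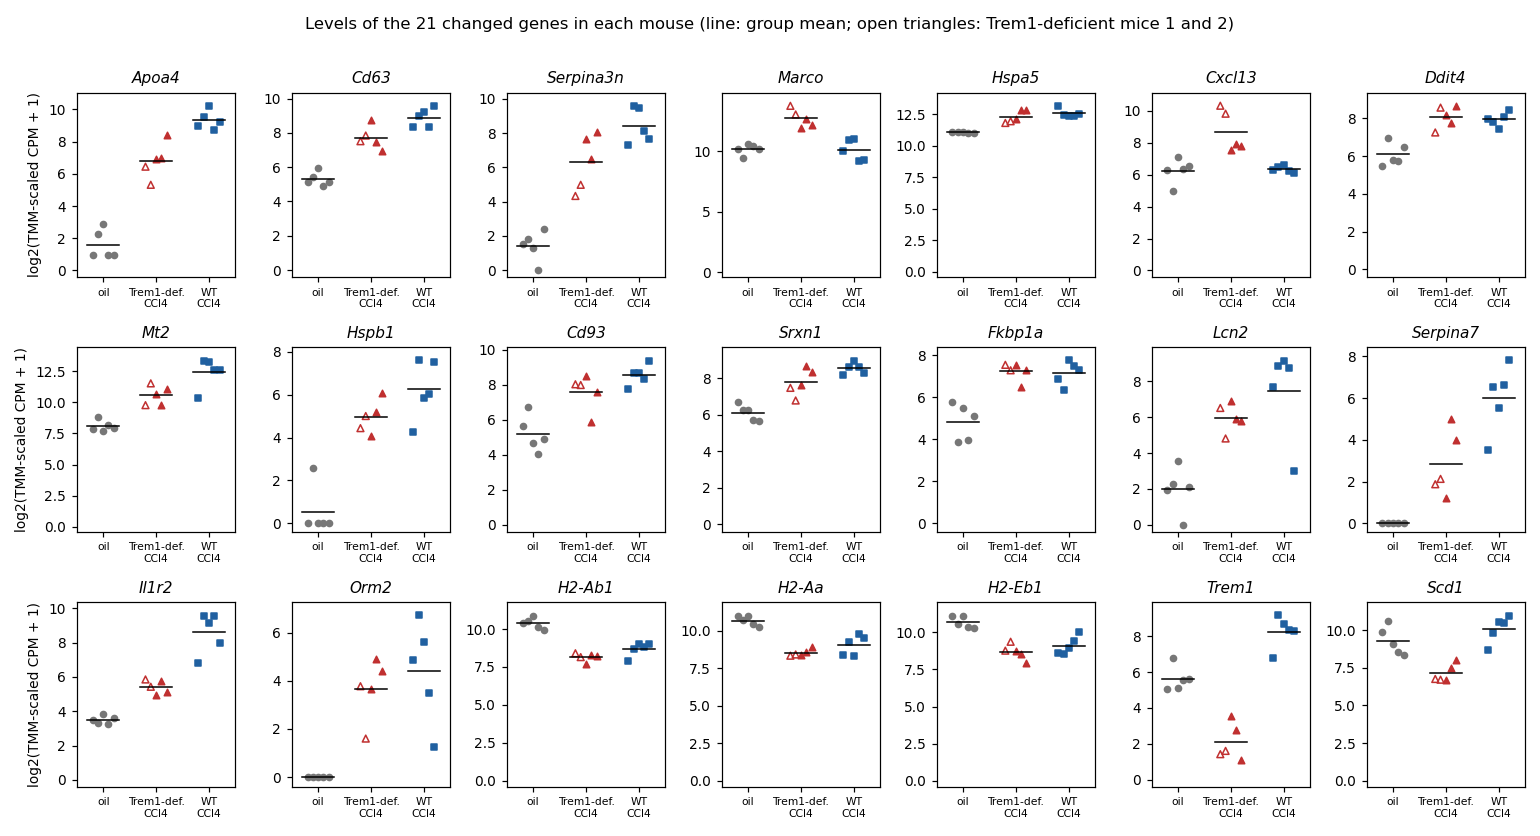
Levels of the 21 changed genes in each mouse, as log2 of TMM-scaled CPM + 1, in oil (grey circles), Trem1-deficient CCl4 (red triangles, open for mice 1 and 2) and wild-type CCl4 mice (blue squares); lines are group means. The 5 genes that fell close the bottom row, and Cd93 is the 1 gene whose Trem1-deficient and oil mice overlap.

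H2-Ab1, H2-Aa and H2-Eb1 fell; they encode chains of MHC class II, whose α and β chains form the dimers that show peptides to CD4 T cells. H2-Ab1, the β chain of I-A (chr17:34257689-34269419, plus strand), was at 1349, 1459.8, 1895, 1134 and 989 CPM in oil mice 1 to 5 and 337, 282, 207, 308 and 293 CPM in Trem1-deficient mice 1 to 5. All Trem1-deficient mice were below all oil mice, with a log2 fold change of -2.26 ± 0.28, adjusted p = 2.21e-05. H2-Aa, the α chain of I-A (chr17:34282744-34287823, minus strand), was at 2008, 1680.2, 2078, 1393 and 1241 CPM in the oil mice and 324, 343, 341, 390.2 and 492 CPM in the Trem1-deficient mice. Here too the groups were apart, by -2.15 ± 0.29, adjusted p = 9.95e-05. H2-Eb1, the β chain of I-E (chr17:34305867-34316674, plus strand), fell from 2242, 1540.0, 2153, 1310.4 and 1282 CPM to 435, 659, 419, 364 and 242 CPM, again without overlap (-2.01 ± 0.31, adjusted p = 7.48e-04).

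The class II promoters share a Y box, an inverted CCAAT motif bound by NF-Y that stands beside the X box of these genes. Windows of 300 bases from RefSeq on GRCm38.p6, 250 before and 50 after the start and read 5′ to 3′ along the gene, are shown for the 2 of the 3 fallen genes with an entry (18 of the 21 changed genes have one), with the 8 letters CTGATTGG, searched on both strands, in capitals.
H2-Aa (chr17:34287774-34288073, minus strand): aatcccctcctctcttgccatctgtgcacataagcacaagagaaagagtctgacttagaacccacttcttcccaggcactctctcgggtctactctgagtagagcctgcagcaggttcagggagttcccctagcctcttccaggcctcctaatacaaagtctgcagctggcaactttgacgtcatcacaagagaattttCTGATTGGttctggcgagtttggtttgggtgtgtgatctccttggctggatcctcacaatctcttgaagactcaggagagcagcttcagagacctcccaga
H2-Eb1 (chr17:34305617-34305916, plus strand): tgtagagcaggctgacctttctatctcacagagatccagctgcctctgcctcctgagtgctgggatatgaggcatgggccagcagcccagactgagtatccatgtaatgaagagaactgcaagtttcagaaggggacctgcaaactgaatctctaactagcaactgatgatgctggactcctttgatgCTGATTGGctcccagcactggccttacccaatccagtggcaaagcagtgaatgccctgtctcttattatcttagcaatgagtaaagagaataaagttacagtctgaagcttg
The letters begin 51 bases before the start of H2-Aa and 62 bases before that of H2-Eb1. They occur in 4.100% of the 32851 windows in the table, and in 3 of the 8 listed class II genes that have a window, the third being H2-Oa. A match describes the letters and shows no binding; this motif was chosen after the fall was known.

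The 3 chains were lower in both subsets of the Trem1-deficient mice. Against oil, H2-Ab1 had a log2 fold change of -2.14 in mice 1 and 2 and -2.34 in mice 3 to 5. The values for H2-Aa were -2.33 and -2.04, and those for H2-Eb1 -1.64 (adjusted p = 0.149, which ends the call) and -2.32. Cd74, the invariant chain that escorts class II molecules, was at 1504, 557, 1952, 1402 and 1191 CPM in the oil mice and 480.1, 584, 523, 369 and 175 CPM in the Trem1-deficient mice, which did not pass (-1.63 ± 0.38, adjusted p = 0.0767). Trem1-deficient mouse 2, at 584 CPM, overlapped oil mouse 2, at 557 CPM. Of 9 tested members of the 11 listed class II presentation genes, 3 fell, 0 rose and 6 did not pass by edgeR. An unadjusted p under 0.05 was found for 6 of the 9, beside 419 of all 9001 genes. DESeq2 called 5 of 9 and limma-voom 4, beside 74 and 9 of all 9001 genes. Cd74 was called in 7 of 20 alternatives, DESeq2 and limma-voom among them. The list's median log2 fold change was -1.63, beside 0.02 over all genes. Markers of other antigen-presenting cells overlapped between the groups: dendritic cell markers summed to 115 to 205 CPM in the oil mice and 86.4 to 261 CPM in the Trem1-deficient mice, and B and plasma cell markers to 35.7 to 164 and 35.00 to 161 CPM. Wild-type CCl4 mice, compared with the same oil mice, had -1.70 for H2-Ab1, -1.55 for H2-Aa and -1.51 for H2-Eb1. For Cd74 they had -2.53 (adjusted p = 1.57e-04 by edgeR). In that comparison 6 of the 9 tested class II genes were lower, beside 2.09% of all genes. In the test between the 2 CCl4 groups 0 of 9 passed by edgeR, with 4 at an unadjusted p under 0.05, 1 by DESeq2 and 1 by limma-voom. For H2-Ab1 that difference was -0.55 ± 0.27, adjusted p = 0.323.

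Marco encodes a scavenger receptor that binds bacteria and modified lipoproteins on macrophages. Its level (chr1:120474538-120505024, minus strand) was 1149, 689.9, 1586, 1388 and 1174 CPM in oil mice 1 to 5 and 13789, 8409, 3931, 6444 and 4538 CPM in Trem1-deficient mice 1 to 5. Every Trem1-deficient mouse was higher than every oil mouse, with mouse 1 the highest, and the log2 fold change was 2.63 ± 0.39, adjusted p = 0.00143. It was 3.21 in mice 1 and 2 and 2.05 in mice 3 to 5, both past the threshold (adjusted p = 3.02e-05 and 0.00263). Wild-type CCl4 mice had 591 to 2101 CPM, and the Trem1-deficient mice were higher than these by 2.56 ± 0.39, adjusted p = 9.51e-04. Marco was the 1 gene of 20 tested Kupffer identity genes that changed from oil; the list's median log2 fold change was -0.43.

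The other 19 identity genes did not pass edgeR's test against oil. Of all 20, Marco included, 5 had an unadjusted p under 0.05, beside 419 of all 9001 genes. DESeq2 called 2 of 20 and limma-voom 2, in each case Marco and Hpgd, beside 74 and 9 of all 9001 genes. Clec4f, a Kupffer cell lectin, was at 2510.3, 1199, 2562, 2164 and 2867 CPM in the oil mice and 894, 1331, 1618, 1164 and 1287 CPM in the Trem1-deficient mice (-0.84 ± 0.32, adjusted p = 0.701). Oil mouse 2, the lowest of its group, lay among the Trem1-deficient mice, the change did not pass, and wild-type CCl4 mice had 122 to 574 CPM. Vsig4, a complement receptor of resident macrophages, had a log2 fold change from oil of -0.55 ± 0.32, adjusted p = 1, Cd5l, a secreted macrophage protein, -0.06 ± 0.32, adjusted p = 1, and the complement gene C1qa -0.42 ± 0.41, adjusted p = 1. Timd4, a phosphatidylserine receptor, had -0.40 ± 0.86, adjusted p = 1 and Adgre1, which encodes F4/80, -0.63 ± 0.52, adjusted p = 1. Of the 20 identity genes, 15 were higher in Trem1-deficient than in wild-type CCl4 mice in the test between these groups, in which 0.778% of all genes were higher; Clec4f differed by 2.23 ± 0.33, adjusted p = 1.93e-04 and Cd5l by 2.44 ± 0.34, adjusted p = 4.73e-04. The lowest p from oil after Marco belonged to Hpgd, a prostaglandin-degrading enzyme, at 379 to 742 CPM in the oil mice and 146 to 355 CPM in the Trem1-deficient mice. The 2 groups did not overlap for Hpgd, and it did not pass by edgeR on all 15 mice (-1.38 ± 0.34, adjusted p = 0.107) but was called by DESeq2, by limma-voom and by edgeR on the 10 mice alone, 3 of 20 alternatives. Folr2, a folate receptor, had -1.21 ± 0.38, adjusted p = 0.38 and Csf1r, the receptor of the macrophage growth factor CSF1, -0.81 ± 0.29, adjusted p = 0.648. The wild-type CCl4 mice, against the same oil mice, had a list median of -2.57 with 16 of 20 genes lower (2.09% of all genes were lower in that comparison). The medians in Trem1-deficient mice 1 and 2 and mice 3 to 5 were -0.62 and -0.43.

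Cd93, a surface protein of myeloid and endothelial cells with a role in clearing dying cells (chr2:148436640-148443563, minus strand), was at 49.8, 106, 25.00, 15.4 and 29.1 CPM in oil and 260.3, 253, 357, 57.95 and 190.4 CPM in Trem1-deficient mice (2.32 ± 0.48, adjusted p = 0.022). Trem1-deficient mouse 4 lay below oil mouse 2, so the groups overlapped. Sinusoidal endothelial markers, whose cells also carry Cd93, summed to 2767 to 11352 CPM in the oil mice and 3107 to 17548 CPM in the Trem1-deficient mice. Oil mouse 2 was the highest of its group, and the other oil mice had 2767 to 5262 CPM. Trem1-deficient mouse 4 was the lowest of its group, and the others had 8090 to 17548 CPM. A higher mean in the Trem1-deficient mice was seen in 15 of the 16 markers. Of these markers 0 of 16 passed by edgeR, with 4 at an unadjusted p under 0.05, 1 by DESeq2 and 0 by limma-voom, with a median log2 fold change of 0.79; their part in the Cd93 value was not tested. Clec4g, a lectin of that endothelium, had 1.63 ± 0.41, adjusted p = 0.116. Of 15 tested scavenger and efferocytosis receptors Marco alone changed, and the median was 0.06. Among complement components and receptors 0 of 18 passed by edgeR, with 0 at an unadjusted p under 0.05, 0 by DESeq2 and 0 by limma-voom, and the median was 0.14.

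In the TREM family and DAP12 pathway, Trem1 was the 1 of 15 tested genes that changed. Tyrobp, the adaptor, was at 1166, 1183, 982, 954 and 1169.7 CPM in the oil mice and 526, 944, 583, 626 and 729 CPM in the Trem1-deficient mice. All Trem1-deficient values were below all oil values, without passing the test (-0.68 ± 0.25, adjusted p = 0.679). Trem2, a lipid-sensing receptor that uses the same adaptor, spanned 7.68 to 48.9 CPM in the oil mice and 35.2 to 116 CPM in the Trem1-deficient mice (1.42 ± 0.78, adjusted p = 1). Over the list the median log2 fold change was -0.34. Trem1 itself was at 111 to 575 CPM in wild-type CCl4 mice, from which the Trem1-deficient mice differed by -6.33 ± 0.65, adjusted p = 7.62e-07.

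Cxcl13, a chemokine that attracts B cells, rose (chr5:95956951-95961068, plus strand). Its level was 78.9, 30.05, 137, 82.6 and 90.8 CPM in oil mice 1 to 5 and 1282, 906, 183, 246 and 223 CPM in Trem1-deficient mice 1 to 5. No mouse overlapped, and Trem1-deficient mice 1 and 2 stood far above mice 3 to 5. The log2 fold change was 2.75 ± 0.48, adjusted p = 0.00324. It was 3.70 in mice 1 and 2 (adjusted p = 1.16e-05) and 1.37 in mice 3 to 5, where it did not pass (adjusted p = 0.23). Wild-type CCl4 mice had 69.2 to 97.3 CPM, lower than the Trem1-deficient mice by a test of the difference (2.80 ± 0.48, adjusted p = 0.00115). Of 14 tested chemokines Cxcl13 was the 1 that changed by edgeR, and the median was 0.51. DESeq2 called 2 of 14 and limma-voom 0, beside 74 and 9 of all 9001 genes. Ccl6, a CC chemokine of macrophages, was at 781 to 1524 CPM in oil and 1660.5 to 5015 CPM in Trem1-deficient mice, apart but not past the threshold (1.16 ± 0.27, adjusted p = 0.0764), and was called in 4 of 20 alternatives, DESeq2 among them. Ccl2, which recruits monocytes, overlapped at 10.3 to 43.8 and 1.17 to 83.9 CPM (1.21 ± 0.97, adjusted p = 1).

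Il1r2 encodes a decoy receptor that binds interleukin-1 without signalling. It rose (chr1:40074079-40125231, plus strand) from 10.3, 8.76, 13.6, 8.64 and 10.99 CPM in the oil mice to 56.8, 42.00, 30.4, 52.2 and 33.98 CPM in the Trem1-deficient mice. The groups were apart (2.02 ± 0.45, adjusted p = 0.0466), though the call was lost in 16 of 20 alternatives. In wild-type CCl4 mice the level was 110.4 to 766 CPM, and the Trem1-deficient mice were lower than these, with a log2 difference of -3.51 ± 0.46, adjusted p = 4.35e-05. Il1r2 is also a listed neutrophil marker. Neutrophil markers summed to 1414.5 to 12381 CPM of the library total in wild-type CCl4 mice and 453 to 3789 CPM in Trem1-deficient mice. The part of neutrophil RNA in this difference was not tested. Il1r2 was the 1 of 13 tested cytokines and antagonists that changed; the median was -0.35. Il1b had a log2 fold change of -0.70 ± 0.29, adjusted p = 0.848, Tnf -0.50 ± 0.78, adjusted p = 1, Il6 -1.52 ± 1.17, adjusted p = 1 and Il10 -0.64 ± 0.79, adjusted p = 1. The Il6 values of the Trem1-deficient mice ranged from 0 to 104 CPM and those of the oil mice from 47.8 to 143 CPM. Among type I interferon response genes 0 of 25 passed by edgeR, with 3 at an unadjusted p under 0.05, 0 by DESeq2 and 0 by limma-voom, and the median was -0.45.

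Hspa5 rose. It encodes BiP, the chaperone of the endoplasmic reticulum that holds the sensors of the unfolded protein response inactive. Its level (chr2:34771970-34777547, plus strand) was 2186, 2157, 2158, 2091 and 2092 CPM in oil mice 1 to 5 and 3583, 3937, 4514, 7356 and 7147 CPM in Trem1-deficient mice 1 to 5. The oil mice lay close together and every Trem1-deficient mouse was above them, mice 4 and 5 the most. The log2 fold change was 1.31 ± 0.23, adjusted p = 0.00302, with 0.82 in mice 1 and 2 (adjusted p = 0.515) and 1.57 in mice 3 to 5. Its RefSeq promoter window holds an endoplasmic reticulum stress element (CCAAT, 9 bases of any kind, then CCACG), where NF-Y and ATF6 bind in known targets; the window is shown with the match in capitals.
Hspa5 (chr2:34771840-34772139, plus strand): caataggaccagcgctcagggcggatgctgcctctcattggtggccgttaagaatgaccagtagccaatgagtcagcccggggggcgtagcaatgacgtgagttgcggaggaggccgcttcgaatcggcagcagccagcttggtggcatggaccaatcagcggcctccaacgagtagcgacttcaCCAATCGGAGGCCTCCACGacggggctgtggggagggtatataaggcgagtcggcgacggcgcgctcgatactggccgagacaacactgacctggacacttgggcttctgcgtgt
The match begins 65 bases before the start. On either strand the element occurs in 0.119% of the windows, and in 7 of the 17 listed endoplasmic reticulum chaperone genes with a window, Hspa5, Calr, Canx, Creld2, Dnajc3, Hsp90b1 and Pdia6. It was chosen after the Hspa5 value was known.

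Hspa5 alone of the 20 tested chaperone genes of the endoplasmic reticulum passed. All Trem1-deficient mice were above all oil mice in 5 of the 20, beside 1.63% of all tested genes. The list's median log2 fold change was 0.67, with 0.57 in mice 1 and 2 and 0.76 in mice 3 to 5. Calr, the lectin chaperone calreticulin, was at 1076 to 1630.1 CPM in oil and 1649 to 5166 CPM in Trem1-deficient mice (1.15 ± 0.35, adjusted p = 0.378). Dnajb9, a BiP cochaperone, was at 1.25 to 24.4 and 31.5 to 71.8 CPM (2.08 ± 0.75, adjusted p = 0.629). Hsp90b1, the HSP90 of the endoplasmic reticulum, was at 736 to 1334 and 1470.1 to 3006 CPM (1.09 ± 0.41, adjusted p = 0.739). The groups were apart for each of these 3 genes, and 0 of the 3 passed. Among integrated stress response genes 0 of 15 passed by edgeR, with 1 at an unadjusted p under 0.05, 0 by DESeq2 and 0 by limma-voom (median 0.19). Atf4, the central transcription factor of that response, had 0.75 ± 0.26, adjusted p = 0.53.

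Hspb1, the small heat shock protein HSP27 (chr5:135887919-135889563, plus strand), had 0 counts in 4 oil mice and 5.01 CPM in oil mouse 2. It was at 20.7, 31.2, 16.1, 35.9 and 66.8 CPM in Trem1-deficient mice 1 to 5, all above oil (5.35 ± 1.09, adjusted p = 0.0186). Of 15 tested heat shock genes Hspb1 was the 1 that changed, and the median was 0.75. In 6 of them all Trem1-deficient mice were above all oil mice, beside 1.63% of all tested genes. Hspd1, the mitochondrial chaperonin, was at 41.4 to 75.1 CPM in oil and 84.3 to 149.7 CPM in Trem1-deficient mice (1.18 ± 0.37, adjusted p = 0.383). Fkbp1a, a prolyl isomerase that binds FK506 (chr2:151542483-151561692, plus strand), rose from 53.5, 13.8, 43.6, 14.4 and 32.97 CPM to 185, 154, 183, 88.97 and 155 CPM, without overlap (2.27 ± 0.48, adjusted p = 0.0235). Ddit4, an inhibitor of mTORC1 induced by stress (chr10:59949669-59951834, minus strand), was at 43.2, 123, 54.3, 51.8 and 89.8 CPM in oil and 151, 377, 287, 215 and 406 CPM in Trem1-deficient mice. These groups too were apart (1.99 ± 0.38, adjusted p = 0.0107). Mice 1 and 2 and mice 3 to 5 gave 1.87 and 2.06 for Ddit4 and 2.41 and 2.16 for Fkbp1a.

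Mt2 rose. It encodes a metallothionein, a small zinc- and copper-binding protein (chr8:94172664-94173568, plus strand). It was at 235, 447, 204, 284 and 250.4 CPM in oil mice 1 to 5 and 872, 2938, 1662, 877 and 2151 CPM in Trem1-deficient mice 1 to 5. The groups did not overlap (2.58 ± 0.46, adjusted p = 0.0162). Wild-type CCl4 mice had 1310.3 to 10357 CPM, and the Trem1-deficient mice were lower than these, with a log2 difference of -1.97 ± 0.44, adjusted p = 0.0262. Mt1, the neighbouring metallothionein gene, overlapped between Trem1-deficient and oil mice, at 259.6 to 727 against 267 to 413 CPM (0.72 ± 0.35, adjusted p = 1). It was lower than in wild-type CCl4 mice (-1.70 ± 0.36, adjusted p = 0.0076). Mt2 was the 1 of 8 tested metallothionein and zinc transporter genes that changed.

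Srxn1 encodes sulfiredoxin, which repairs oxidised peroxiredoxins and is a known target of the transcription factor NRF2 (chr2:152105516-152111376, plus strand). Its level was 104, 75.1, 75.7, 52.8 and 49.7 CPM in the oil mice and 178, 109.8, 197, 413 and 322 CPM in the Trem1-deficient mice. The groups were apart, narrowly for Trem1-deficient mouse 2 (1.77 ± 0.37, adjusted p = 0.0223), and the change was 1.01 in mice 1 and 2 and 2.12 in mice 3 to 5. Of 24 tested NRF2 genes Srxn1 was the 1 that changed, with a median of 0.33. Hmox1, the haem-degrading oxygenase, overlapped (0.53 ± 0.70, adjusted p = 1). The promoter windows of both genes are shown with matches in capitals, for Mt2 the metal response element cores TGCACNC and TGCGCNC and for Srxn1 the antioxidant response element TGACNNNGC, each searched on both strands.
Mt2 (chr8:94172368-94172667, plus strand): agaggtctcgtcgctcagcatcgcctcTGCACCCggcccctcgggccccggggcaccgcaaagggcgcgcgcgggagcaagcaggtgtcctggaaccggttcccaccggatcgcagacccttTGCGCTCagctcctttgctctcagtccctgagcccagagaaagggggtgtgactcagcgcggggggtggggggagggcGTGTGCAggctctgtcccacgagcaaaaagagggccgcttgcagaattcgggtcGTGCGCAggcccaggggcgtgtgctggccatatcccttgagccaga
Srxn1 (chr2:152105274-152105573, plus strand): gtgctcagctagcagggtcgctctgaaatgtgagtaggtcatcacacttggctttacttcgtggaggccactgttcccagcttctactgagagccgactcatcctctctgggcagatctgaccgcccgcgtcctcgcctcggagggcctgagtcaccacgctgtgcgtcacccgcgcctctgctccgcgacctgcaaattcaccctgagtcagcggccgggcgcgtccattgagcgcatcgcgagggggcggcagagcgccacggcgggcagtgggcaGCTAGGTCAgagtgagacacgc
The Mt2 window holds 4 metal response element cores, and 4 or more occur in 0.517% of all windows; 1 core or more occurs in 25.7% of windows and in 6 of the 8 listed genes with a window. The Srxn1 window holds 1 match to TGACNNNGC, on the opposite strand, 29 bases into the transcript. Those letters occur in 12.4% of windows and in 11 of 23 NRF2 genes with a window. Other forms of the antioxidant response element were not searched, so sites of another form would stand unmarked. These motifs are descriptions of the sequence.

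Apoa4 encodes apolipoprotein A-IV, a secreted lipid carrier (chr9:46240696-46243459, plus strand). Oil mice 1 to 5 had 0.939, 3.76, 6.43, 0.96 and 0.956 CPM and Trem1-deficient mice 1 to 5 86.2, 38.95, 121, 127 and 334 CPM. Every Trem1-deficient mouse was above every oil mouse, with a log2 fold change of 5.74 ± 0.61, adjusted p = 6.52e-06, the smallest p of all 9001 genes. It was 4.56 in mice 1 and 2 and 6.20 in mice 3 to 5. Wild-type CCl4 mice had 416 to 1202 CPM, and the Trem1-deficient mice were lower than these, with a log2 difference of -2.28 ± 0.48, adjusted p = 0.00934. The hepatocyte marker sum was 10472 to 37690 CPM of the library total in wild-type CCl4 mice and 1628 to 18149 CPM in Trem1-deficient mice. Apoa4 is known as a transcript of intestine and liver cells; hepatocyte markers were below all oil mice in Trem1-deficient mice 1 and 2, in which Apoa4 was 86.2 and 38.95 CPM, and the part of hepatocyte RNA was not tested.

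Scd1, the desaturase that makes monounsaturated fatty acids (chr19:44394455-44407879, minus strand), fell. It was at 956, 1535, 549, 372 and 329 CPM in oil mice 1 to 5 and 108, 104, 104, 175 and 257 CPM in Trem1-deficient mice 1 to 5. No values overlapped (-2.32 ± 0.44, adjusted p = 0.015), and mice 1 and 2 and mice 3 to 5 gave -2.82 and -2.06, neither past the threshold on its own. Hepatocytes also express Scd1. The 2 Trem1-deficient mice with the highest Scd1, mice 4 and 5, also had the highest hepatocyte sums of their group. The sum of mouse 5, 18149 CPM of the library total, was above every oil mouse, while its Scd1 was below every oil mouse. The part of hepatocyte RNA was not tested. Wild-type CCl4 mice were at 412 to 2016 CPM, above the Trem1-deficient mice (-3.07 ± 0.45, adjusted p = 4.73e-04). Their hepatocyte markers summed to 10472 to 37690 CPM of the library total, against 1628 to 18149 CPM in the Trem1-deficient mice. The part of hepatocyte RNA in this difference was not tested either. Of 12 tested fatty acid synthesis genes Scd1 was the 1 that changed (median -0.52). Among genes of cholesterol synthesis and efflux 0 of 15 passed by edgeR, with 2 at an unadjusted p under 0.05, 0 by DESeq2 and 0 by limma-voom (median -0.30).

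Cd63, a tetraspanin of late endosomes and lysosomes (chr10:128900989-128912822, plus strand), was at 33.8, 42.6, 60.7, 28.8 and 33.4 CPM in oil and 182, 229, 437, 179.6 and 123 CPM in Trem1-deficient mice. The groups were well apart (2.53 ± 0.38, adjusted p = 6.26e-04), and mice 1 and 2 (2.36) and mice 3 to 5 (2.63) had similar values. Wild-type CCl4 mice had 323 to 768 CPM, and the test between the CCl4 groups did not pass (-1.12 ± 0.36, adjusted p = 0.1). Cd63 was the 1 of 17 tested repair and scar-associated macrophage genes that changed by edgeR, and the list's median was 0.81. An unadjusted p under 0.05 was found for 6 of the 17, beside 419 of all 9001 genes. DESeq2 called 3 of 17 and limma-voom 0, beside 74 and 9 of all 9001 genes. Mmp12, the macrophage elastase, was at 1.25 to 38.4 CPM in oil and 26.4 to 289 CPM in Trem1-deficient mice (2.98 ± 0.69, adjusted p = 0.0764), and was called in 6 of 20 alternatives. Gpnmb, a glycoprotein of lipid-laden macrophages, was at 0.96 to 8.57 and 4.08 to 119 CPM (3.11 ± 0.95, adjusted p = 0.361), and was called by DESeq2. Lpl, lipoprotein lipase, was apart at 529 to 744 and 793 to 1723 CPM without passing (0.86 ± 0.27, adjusted p = 0.375), and was higher than in wild-type CCl4 mice (1.57 ± 0.27, adjusted p = 0.00115). Among lysosomal genes 0 of 28 passed by edgeR, with 3 at an unadjusted p under 0.05, 0 by DESeq2 and 0 by limma-voom, and the median was -0.05.

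Serpina3n, Orm2, Serpina7 and Lcn2, which encode secreted proteins that hepatocytes can make, rose. Serpina3n, a protease inhibitor (chr12:104406729-104414329, plus strand), was at 1.88, 2.504, 1.43, 0 and 4.300 CPM in oil mice 1 to 5 and 19.05, 30.5, 203, 89.8 and 269 CPM in Trem1-deficient mice 1 to 5. All Trem1-deficient mice were above oil, mice 1 and 2 the least (5.76 ± 0.82, adjusted p = 8.86e-04; 3.46 in mice 1 and 2 and 6.38 in mice 3 to 5). Orm2, an orosomucoid (chr4:63362449-63365878, plus strand), had 0 counts in all 5 oil mice and 12.7, 2.03, 11.7, 29.4 and 20.5 CPM in the Trem1-deficient mice, at least 32.6-fold higher than 3 counts over the oil group (adjusted p = 0.0496). Serpina7, which encodes thyroxine-binding globulin (chrX:139079257-139085236, minus strand), also had 0 counts in the oil mice, with 2.67, 3.39, 1.304, 31.02 and 15.2 CPM in the Trem1-deficient mice, at least 22.9-fold higher on the same floor (adjusted p = 0.0453). Lcn2, the iron-siderophore binding protein lipocalin 2 made by neutrophils and hepatocytes (chr2:32384633-32388252, minus strand), went from 2.82, 3.76, 10.7, 0 and 3.34 CPM to 90.5, 27.1, 118, 57.95 and 53.3 CPM (4.01 ± 0.83, adjusted p = 0.0443). Orm2 and Serpina7 did not pass the filter on low counts in the 10 mice alone. They were tested in the fit of all 15 mice, which includes the wild-type CCl4 mice. The call was lost in 13 of 19 alternatives for Orm2, 10 of 19 for Serpina7 and 11 of 20 for Lcn2. Orm2 and Serpina7 were highest in Trem1-deficient mice 4 and 5, which also had the group's highest hepatocyte sums. Oil mouse 2 had a hepatocyte sum of 16013 CPM of the library total and 0 counts of both genes. Trem1-deficient mouse 1 had a sum of 2799 CPM, below every oil mouse, and Orm2 at 12.7 CPM. The part of hepatocyte RNA was not tested. Orm2 and Serpina3n have near-identical copies in the genome, so their counts are uncertain.

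Of 17 tested acute-phase genes 2 rose, Serpina3n and Orm2, with a list median of 2.24. By edgeR 13 of the 17 had an unadjusted p under 0.05, beside 419 of all 9001 genes. DESeq2 called 9 of the 17 and limma-voom 0, beside 74 and 9 of all 9001 genes. The median was 0.11 in mice 1 and 2 and 2.87 in mice 3 to 5. In wild-type CCl4 mice 14 of the 17 rose from the same oil mice (3.04% of all genes were higher there). Hp, haptoglobin, was at 954, 565, 3517, 4695 and 4649 CPM in Trem1-deficient mice 1 to 5 and 201 to 617 CPM in the oil mice (3.10 ± 0.72, adjusted p = 0.17). Saa3, an acute-phase protein of macrophages, had 0 to 2.86 CPM in the oil mice and 1.17 to 80.5 CPM in the Trem1-deficient mice (4.51 ± 1.03, adjusted p = 0.0767). Alb, albumin, overlapped at 732 to 4304 and 211 to 2629 CPM (-0.82 ± 0.76, adjusted p = 1). Of the hepatocyte markers 0 of 19 passed by edgeR, with 3 at an unadjusted p under 0.05, 0 by DESeq2 and 0 by limma-voom.

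Of the recruited cell types, 0 of 2 marker sums passed the test. Monocyte and recruited macrophage markers summed to 891, 1425, 1080.4, 719.8 and 887 CPM in the oil mice and 2451, 1324, 1264, 1273 and 1409 CPM in the Trem1-deficient mice. The ranges overlapped (log2 difference 0.613, exact permutation p = 0.0397, adjusted over 11 cell types 0.218). Of the members 0 of 15 passed by edgeR, with 4 at an unadjusted p under 0.05, 1 by DESeq2 and 0 by limma-voom. Vcan, the proteoglycan versican of monocytes, was apart at 0 to 10.3 and 12.2 to 48.4 CPM without passing (2.80 ± 0.71, adjusted p = 0.108). S100a6, a calcium-binding protein, had 2.01 in mice 1 and 2, which passed on its own, and 0.52 in mice 3 to 5 (1.31 ± 0.38, adjusted p = 0.293 over all 5). Ly6c2, a surface marker of inflammatory monocytes, overlapped widely (0.47 ± 1.00, adjusted p = 1). Neutrophil markers summed to 229 to 1598 CPM in oil and 453 to 3789 CPM in Trem1-deficient mice (exact permutation p = 0.0952). Of their 10 tested members Lcn2 and Il1r2 changed, while S100a8 overlapped (1.38 ± 0.76, adjusted p = 1); whether neutrophil RNA carried part of the Lcn2 and Il1r2 values was not tested.

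**Figure D3:**
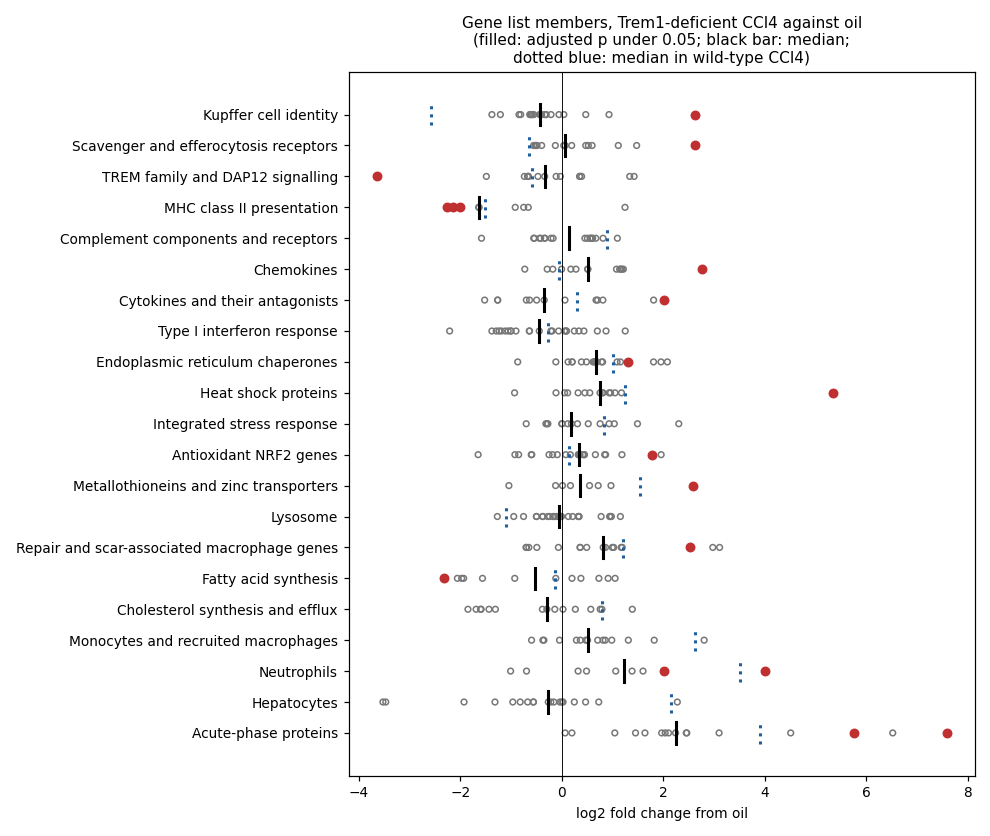
Log2 fold changes from oil of the tested members of 21 gene lists in Trem1-deficient CCl4 mice (open circles; filled red where adjusted p is under 0.05), with the list median as a black bar and the median of the same genes in wild-type CCl4 mice, which share the oil controls, as a dotted blue bar. The MHC class II median lies at -1.63, the Kupffer identity median at -0.43 with Marco far to its right, and the acute-phase median at 2.24.

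Set against the test between the 2 CCl4 groups, which called 185 of 9001 genes (2.06%), 7 of the 21 genes differed between Trem1-deficient and wild-type CCl4 mice. Marco and Cxcl13 were higher without Trem1, and Apoa4, Mt2, Il1r2, Trem1 and Scd1 were lower (0.778% and 1.28% of all genes). The other 14 did not pass that test, which does not show that they were alike; the difference was -0.23 ± 0.23, adjusted p = 0.688 for Hspa5, 0.04 ± 0.45, adjusted p = 0.979 for Fkbp1a and -1.79 ± 0.64, adjusted p = 0.164 for Serpina3n. The Trem1-deficient mice 3 to 5 share index series and sex-linked transcripts with the wild-type CCl4 mice, and mice 1 and 2 do not. Hepatocyte and neutrophil marker sums reached higher values in the wild-type CCl4 mice. Their part in the differences between the CCl4 groups was not tested.

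Divided by index series, 11 genes changed between Trem1-deficient mice 1 and 2 and oil, and 35 between mice 3 to 5 and oil. Both subsets called 7 genes, Apoa4, Cd63, H2-Aa, H2-Ab1, Marco, Serpina3n and Trem1. Cxcl13 was called in mice 1 and 2 and not in mice 3 to 5, a difference that itself did not pass (adjusted p = 0.0661). Another 9 of the 21 (Ddit4, H2-Eb1, Hspa5, Hspb1, Lcn2, Mt2, Orm2, Serpina7 and Srxn1) were called in mice 3 to 5 and not in mice 1 and 2, and 4 (Cd93, Fkbp1a, Il1r2 and Scd1) only with all 5 mice. Between the subsets themselves 6 genes differed (0.0667%), namely Ddx3y, Xist, Mup12, Mup20, Pzp and Serpina1e, and 0 of the 21 were among them. The labels do not say what the index series stand for, so sex, index series and any other feature of the subsets cannot be told apart.

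**Figure D4:**
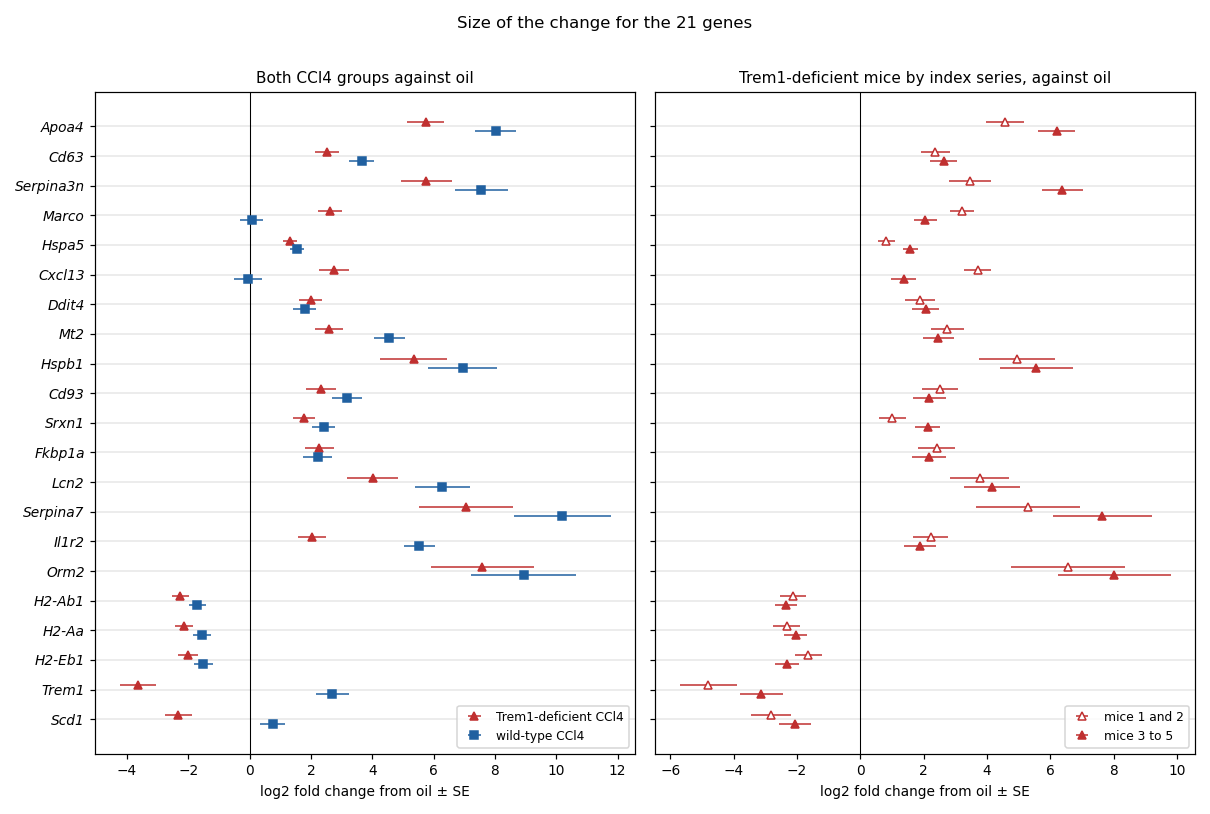
Log2 fold change from oil ± SE of the 21 changed genes: left, Trem1-deficient CCl4 (red triangles) and wild-type CCl4 mice (blue squares) against the same 5 oil mice; right, Trem1-deficient mice 1 and 2 (open) and mice 3 to 5 (filled) against oil. Marco and Cxcl13 are high in red and near 0 in blue on the left, where Trem1 and Scd1 point to opposite sides, and on the right every gene keeps its sign in both subsets.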

How the data were processed

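The authors deposited unnormalized counts, in a table of genes by mice, and these were used as they stand. Per the labels' protocols, total RNA was made into 3' tag libraries (Lexogen QuantSeq), so a count is a read near a transcript's 3' end. The submitters' processing notes name Trimmomatic, STAR 2.5.1a, Partek 6.6 and the build mm10 without saying what each did. The annotation and strand setting are not given in the sources. Overlapping or antisense gene pairs may therefore share counts. Molecular identifiers are not mentioned. The table has 24411 genes; 4 tally rows (unmapped, multimapping, outside genes, ambiguous) were left out of library sizes and tests, and genes took 15.2 to 28.8% of the reads of the 10 libraries. The mouse is the replicate; the 4 lane entries of a mouse share a column, and 0 of the 20 pairs of libraries within the oil and Trem1-deficient groups agreed within sampling noise.

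edgeR 4.0.16 in R 4.3.3 was run on all 15 mice with TMM scaling, filterByExpr by group, a robust quasi-likelihood fit (12 residual degrees of freedom, biological coefficient of variation 0.888) and Benjamini-Hochberg adjustment at 0.05 over 9001 genes. The contrasts were Trem1-deficient CCl4 minus oil and, for differences from wild type, Trem1-deficient minus wild-type CCl4; a fit with the Trem1-deficient mice divided by index series gave the values of mice 1 and 2 and mice 3 to 5. Trem1 and marker sums were compared by exact permutation tests on log2(CPM + 1), with adjustment over the 11 cell types for the sums. The test code was tested on simulated data. A gene at 0 in a whole group is bounded by 3 counts over that group. Alternatives were RLE and upper-quartile scaling, other filters, DESeq2 1.42.0, limma-voom (limma 3.58.1), only the 10 mice, a replicate block, the index series and leaving out each mouse.

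The 41 gene lists, the naming rule and the mice compared were chosen with earlier results of these data known. The text names Trem1, the 12 changed genes with the smallest p in each direction among those whose higher group averaged 10 CPM, up to 4 members of a described list with the smallest p, and 23 preset genes; Lcn2, Il1r2, Orm2 and other genes named outside the 12 per direction come in as list members, while Serpina7 and the genes that differ by index series were named after their values were seen. The Y box and the endoplasmic reticulum stress element were likewise chosen after the values were seen. Gene positions are those of GENCODE M21 (GRCm38, which mm10 is), and promoter windows from RefSeq on GRCm38.p6.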

Additional observations from a re-analysis of the deposited data

Results flagged for a closer look

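Among 136 groups of 5 mice looked at (57 named genes and 11 marker sums, in oil and in Trem1-deficient mice), 11 had a mouse whose gap to its nearest neighbour took over 0.71 of the group's range. Chance gives about 1 in 20 for independent, normally distributed values. The values here are unlogged CPM of the same 10 mice, and 10 of the 11 were the highest of their group, so that rate may not hold. Oil mouse 2 was that mouse in 7 of the 8 oil cases. It had the highest Alb (4304.0 CPM), Ccl2 (43.8 CPM), Hspb1 (5.01 CPM), Ly6c2 (57.6 CPM) and Trem1 (109.0 CPM) of the oil mice, the lowest Csf1r (1436.0 CPM), and the highest sum of erythroid and platelet markers (208.0 CPM). Oil mouse 1 had the highest Tnf, 170.0 CPM. In the Trem1-deficient group, mouse 4 stood apart in Il6 (104.0 CPM), mouse 3 in Mmp12 (289.0 CPM) and mouse 1 in the summed monocyte markers (2451.0 CPM).

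In 6 genes Trem1-deficient mice 3 to 5 differed from mice 1 and 2 by the test of that difference in edgeR. The log2 difference was 8.95 for the Y-linked helicase Ddx3y and -6.40 for Xist. The hepatocyte transcripts Mup12 (9.87), Mup20 (9.56), Serpina1e (6.65) and Pzp (3.23) were higher in mice 3 to 5. These mice also had the higher hepatocyte sums, the higher Y-linked counts and another index series. The parts of hepatocyte RNA, sex and index series in these 4 values were not tested. Mup genes are near-identical copies of each other, so their counts are uncertain.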

How the results depend on the processing

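The count of 21 genes changed from oil (16 higher, 5 lower) was 22 with RLE scaling, 18 with upper-quartile scaling and 21 with a filter of 10 counts in 5 libraries, which was planned as stricter but tested 9385 genes. It was 73 (44 higher, 29 lower) with no filter, 74 (57 higher, 17 lower) by DESeq2, 9 (2 higher, 7 lower) by limma-voom, 25 (15 higher, 10 lower) in the 10 mice alone, 11 (6 higher, 5 lower) in Trem1-deficient mice 1 and 2, and 35 (29 higher, 6 lower) in mice 3 to 5. Leaving out 1 mouse gave 12 to 28 genes (7 to 22 higher, 4 to 7 lower), with 12 without oil mouse 1, 4 or 5, 13 without oil mouse 3, and the higher genes 10 and 9 without Trem1-deficient mouse 3 and 5. For Trem1-deficient against wild-type CCl4 mice the count of 185 (70 higher, 115 lower) was 213 with RLE scaling, 563 (161 higher, 402 lower) with no filter, 616 (189 higher, 427 lower) by DESeq2 and 77 (37 higher, 40 lower) in mice 3 to 5. Leaving out 1 mouse gave 87 to 508 (35 to 296 higher, 52 to 212 lower), with 508 without wild-type CCl4 mouse 1, 118 and 119 without wild-type CCl4 mouse 3 and 4, and 114, 87, 98 and 112 without Trem1-deficient mouse 1, 2, 3 and 4. The replicate numbers do not pair the mice: deviations of same-numbered mice correlated at -0.0585 to -0.00932, and 0 of 5 oil mice correlated best with their own number. With the replicate block 21 (13 higher, 8 lower) genes changed from oil, 16 of them among the 21, and 158 (72 higher, 86 lower) between the CCl4 groups. The Trem1 difference on log2(CPM + pseudocount) went from -3.67 to -2.61 at 0.5 and 5 CPM and stayed past the threshold in each of its 12 alternatives. The log2 difference of the Kupffer sum ranged from -0.197 to 0.123 with 1 mouse left out, the lowest without oil mouse 2. Of the 21 genes 0 changed sign. Among 36 other named genes 5 did, none of them called: Timd4 (0.028) and Hmox1 (-0.73) in mice 1 and 2, Ly6c2 in mice 3 to 5 (-1.34), and with 1 mouse left out Cd5l (-0.204 to 0.0208), Ly6c2 (-0.197 to 1.91) and Tnf (-0.986 to 0.413). Of 820 recomputed list medians 770 moved by less than the spread between mice. The cause of these differences was not tested, beyond the genes and samples that each setting adds or leaves out. Depth limits genes under about 3 CPM, where a library's count is 3 or fewer.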

Other observations

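In 9 further gene lists no member passed the test against oil in the Trem1-deficient CCl4 mice by edgeR. Among cytosolic ribosomal proteins 0 of 60 passed by edgeR, with 1 at an unadjusted p under 0.05, 0 by DESeq2 and 0 by limma-voom (median log2 fold change 0.10). Among nuclear genes of oxidative phosphorylation 0 of 65 passed by edgeR, with 0 at an unadjusted p under 0.05, 0 by DESeq2 and 0 by limma-voom (median log2 fold change -0.08). Among proteasome subunits 0 of 37 passed by edgeR, with 0 at an unadjusted p under 0.05, 0 by DESeq2 and 0 by limma-voom (median log2 fold change 0.20). Of glycolysis and hypoxia genes 0 of 16 passed by edgeR, with 0 at an unadjusted p under 0.05, 0 by DESeq2 and 0 by limma-voom (median log2 fold change 0.21). Among cell cycle genes 0 of 12 passed by edgeR, with 0 at an unadjusted p under 0.05, 0 by DESeq2 and 0 by limma-voom (median log2 fold change -0.54), and among macrophage transcription factors 0 of 19 passed by edgeR, with 1 at an unadjusted p under 0.05, 0 by DESeq2 and 0 by limma-voom (median log2 fold change -0.07).

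Over all 9001 genes 419 had an unadjusted p under 0.05. Of immediate-early genes 0 of 18 passed by edgeR, with 6 at an unadjusted p under 0.05, 0 by DESeq2 and 0 by limma-voom (median log2 fold change -0.30). Of p53 targets 0 of 12 passed by edgeR, with 4 at an unadjusted p under 0.05, 0 by DESeq2 and 0 by limma-voom (median log2 fold change -0.13). Cytochrome P450 genes, which include those that activate CCl4 in hepatocytes, had a median of -1.75 in Trem1-deficient mice 1 and 2 and 0.21 in mice 3 to 5; over all 5 mice 0 of 26 passed by edgeR, with 6 at an unadjusted p under 0.05, 0 by DESeq2 and 0 by limma-voom.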
